A study of Mus musculus with 3 samples.

Results

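The 9 genes described here encode enzymes of the tricarboxylic acid cycle other than succinate dehydrogenase: Cs, Idh2, Idh3a, Idh3b, Idh3g, Ogdh, Suclg1, Fh1 and Mdh2. They were chosen by symbol from the 24481 gene rows of the series, and each stood on a single row. Messenger RNA of skeletal muscle from ICR mice (an outbred stock), aged 42 days, was read from its 3' end in 3 libraries, 1 per group. The groups were Exercise SQH (exercise with a treatment the labels call SQH), Exercise Control and Control, and the study title names fatigue and extracts from leaves of the dwarf bamboo Sasa quelpaertensis. The labels give no muscle name, exercise protocol, SQH dose or number of animals in a library, and all 3 groups share stock, tissue and age.

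The cycle runs in the mitochondrial matrix. Citrate synthase joins acetyl groups to oxaloacetate, the later enzymes oxidise the product step by step to oxaloacetate again, and the electrons pass to the respiratory chain as NADH and reduced flavin. Isocitrate is oxidised in the matrix by separate enzymes, one using NAD and built from the Idh3 subunits, the other, Idh2, using NADP and supplying NADPH. Slow and other oxidative fibres of skeletal muscle hold more mitochondria than fast glycolytic fibres.

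With 1 library per group there was no replicate error, no test and no p-value, and every difference is one between libraries. Calls rest on size: a gene counted as higher or lower at a log2 difference of 1 or more (2-fold), provided its linear values averaged 66.5 or more, which 7857 rows did. All 9 genes passed that minimum. The ± value beside a log2 difference is the standard error of counting reads at the depth estimated for each library, 12.4 M reads in Exercise SQH, 8.12 M in Exercise Control and 10.8 M in Control. It covers neither animals nor library preparation.

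The Exercise Control library stood apart from both others in fibre type and nerve markers. The 13 slow-fibre markers had a summed level of 18.78 in Exercise SQH, 15.65 in Exercise Control and 19.11 in Control (log2), and 12 of the 13 were called lower in Exercise Control than in Control. The 14 fast-fibre markers summed to 19.18, 19.80 and 19.39 in the same libraries. The 8 nerve and Schwann cell markers summed to 10.37, 12.09 and 10.30, and the 8 adipocyte markers to 12.34, 11.78 and 12.03. Fabp4 alone stood at 12.19, 11.72 and 11.93, so it made up most of the adipocyte sum. No slow-fibre, fast-fibre or nerve marker was at 0 in any library, whereas the adipocyte markers Cidec, Retn and Ucp1 were at 0 in Exercise Control and Ucp1 was at 0 in Control. The part of these markers in the results below was not tested.

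Idh2 was the member that differed most between libraries. It stood at 12.79 in Exercise SQH, 11.64 in Exercise Control and 13.13 in Control on the deposited log2 scale. The Exercise Control library was thus the low one, and Exercise SQH lay between it and Control, nearer to Control. Fh1, the fumarase gene, had the same low library, with 11.52 in Exercise SQH, 10.80 in Exercise Control and 11.34 in Control. Mdh2, the mitochondrial malate dehydrogenase, was the most abundant member everywhere, at 15.06 in Exercise SQH, 15.61 in Exercise Control and 15.56 in Control, and there Exercise SQH was the low library.

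The sequence before the transcription start is shown for these 3 genes, the first for its call, the second for the next largest gap and the third for its level. The sequences are the 250 bases before the start from RefSeq, build GRCm38.p6, read 5′ to 3′ on the gene's strand. They lie at chr7:80115351-80115600 (minus strand) for Idh2, chr1:175625636-175625885 (minus strand) for Fh1 and chr5:135778399-135778648 (plus strand) for Mdh2. In the GENCODE M21 annotation Idh2 starts at 80115392 and Mdh2 at 135778480, both inside these windows. Part of the Idh2 and Mdh2 windows thus lies within the gene as annotated there. The marked boxes of Idh2 all lie in that part, past the GENCODE M21 start. Capitals mark GGGCGG boxes and the palindrome TCTCGCGAGA, on either strand, the longest self-complementary word that stands 3 or more times in the Mdh2 window.
Idh2: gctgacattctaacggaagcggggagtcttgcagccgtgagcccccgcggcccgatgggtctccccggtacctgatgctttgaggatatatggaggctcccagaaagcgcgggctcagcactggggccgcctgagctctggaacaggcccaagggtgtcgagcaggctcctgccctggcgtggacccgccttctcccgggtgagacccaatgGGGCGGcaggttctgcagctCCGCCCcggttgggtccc
Fh1: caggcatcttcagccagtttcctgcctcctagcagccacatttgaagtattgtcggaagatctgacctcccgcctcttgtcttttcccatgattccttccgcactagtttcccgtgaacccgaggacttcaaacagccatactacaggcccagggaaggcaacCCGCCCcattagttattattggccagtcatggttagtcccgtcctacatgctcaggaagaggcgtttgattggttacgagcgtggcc
Mdh2: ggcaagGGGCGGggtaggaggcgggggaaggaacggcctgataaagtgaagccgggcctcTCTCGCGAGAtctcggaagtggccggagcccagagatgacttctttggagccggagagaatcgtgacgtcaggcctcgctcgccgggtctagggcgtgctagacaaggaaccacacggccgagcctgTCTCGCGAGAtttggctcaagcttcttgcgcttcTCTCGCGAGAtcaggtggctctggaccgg

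The palindrome stood 3 times in the Mdh2 window, and the copies after the first lie past the GENCODE M21 start of the gene. It was found in 128 of the 32851 windows of this length (0.390%), and 3 or more copies stood in 2 windows. It was searched for after the Mdh2 sequence had been seen. Windows were at hand for 8 members, all but Idh3a, and the palindrome was in none of the others. GGGCGG was found for 5 of the 8 (Cs, Idh2, Ogdh, Fh1 and Mdh2), for Ogdh in 2 of its 6 windows. It was in 32.7% of all windows, a share of windows and not of genes. CCGGAAG, a motif bound by ETS factors, was found for Idh3g alone among the 8 and in 6.91% of windows. GCGCANGCG, the core of the NRF1 motif, was found for Ogdh alone, in 2 of its 6 windows, and in 5.16% of windows. TNAAGGTCA, the extended half-site of estrogen-related receptors (1.14% of windows), was found for none of the 8. All motifs were searched on both strands. The Idh2, Fh1 and Mdh2 windows held 67.2%, 52.8% and 63.2% G and C, against a median of 52.4% over all windows.

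**Figure D1:**
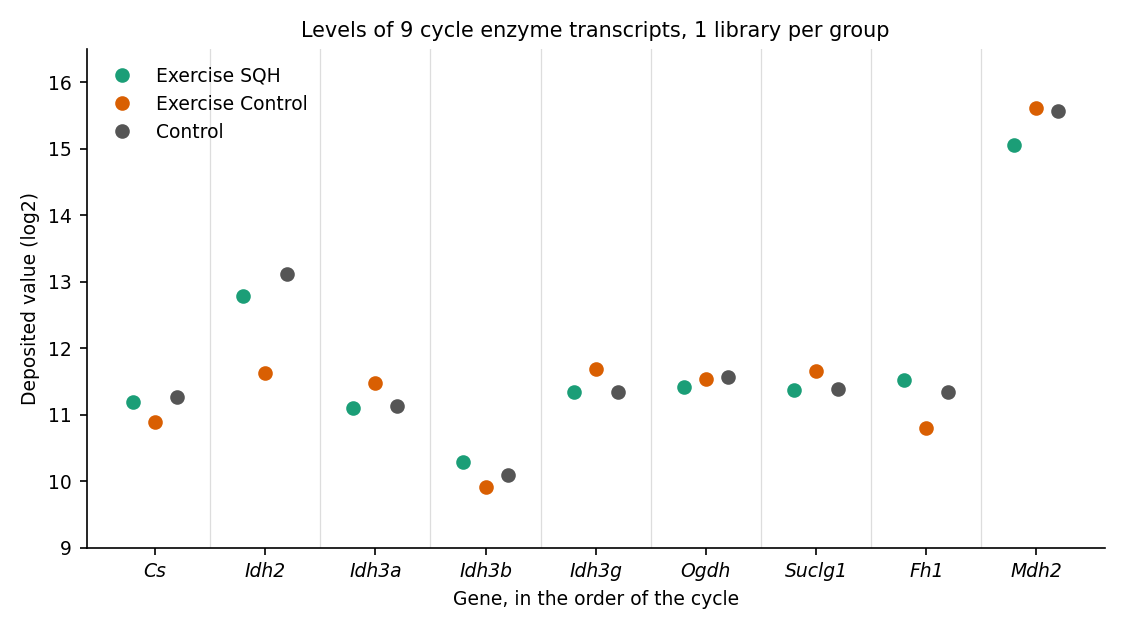
Deposited log2 value (y axis) of each of the 9 genes (x axis, in the order of the cycle) in the Exercise SQH, Exercise Control and Control libraries, 1 point per library. Mdh2 stands above 15 in all 3, and Idh2 is at 11.64 in Exercise Control against 13.13 in Control.

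A 3' library does not count more reads for a longer transcript, so levels of different genes can be set side by side on the deposited scale. The 3' end that reads reach still differs by gene. Annotated coding transcripts have 1 distinct end for Cs and each Idh3 subunit and 2 for Idh2, Suclg1 and Fh1. Those of Mdh2 have 3 and those of Ogdh 5. How reads were counted is not given, so orders, shares and ratios of different genes, here and below, are approximate. In Exercise SQH the order was Mdh2, Idh2, Fh1, Ogdh, Suclg1, Idh3g, Cs, Idh3a and Idh3b. In Control it was Mdh2, Idh2, Ogdh, Suclg1, Idh3g, Fh1, Cs, Idh3a and Idh3b. In Exercise Control Idh2 was at position 4, after Mdh2, Idh3g and Suclg1, and Idh3b was again lowest, at 9.91. Some neighbours in these orders were closer than 1.96 counting errors: Ogdh, Suclg1 and Idh3g in Exercise SQH, Idh3g, Suclg1 and Idh2 in Exercise Control, and Suclg1, Idh3g, Fh1 and Cs in Control. In Exercise Control the same held for Ogdh and Idh3a and for Cs and Fh1. Mdh2 made up 58.9% of the estimated reads of the 9 genes in Exercise SQH (95% Wilson interval 58.6% to 59.3%), 71.3% in Exercise Control (70.9% to 71.6%) and 65.4% in Control (65.1% to 65.7%). Intervals cover counting error only.

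Exercise Control was set against Control to see how these transcripts differed between the library labelled with exercise alone and the one labelled control. Idh2 was called lower, by 2.81-fold (-1.49 ± 0.03 on the log2 scale), and none of the other 8 was called. Over all tested rows 5.33% were called lower and 2.95% higher, and 1.85% of rows had a lower difference than Idh2. Of all calls 64.4% were lower ones, a share of 51.9% to 63.3% under the other scalings. The 9 differences had a median of -0.03, beside a median of -0.04 over the tested rows, with 4 above 0 and 5 below. In whole muscle, fewer cells of a type and less RNA per cell cannot be told apart.

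The uncalled members lay on both sides of 0. Fh1 differed by -0.54 ± 0.05 and Cs, citrate synthase, by -0.38 ± 0.05, with Cs at 10.89 in Exercise Control and 11.26 in Control. Idh3b differed by -0.18 ± 0.07. Above 0 were Idh3a, the catalytic subunit of the NAD enzyme (0.35 ± 0.04), Idh3g, a regulatory subunit (0.34 ± 0.04), and Suclg1, the alpha subunit common to both succinyl-CoA ligases (0.27 ± 0.04). Each of these 6 gaps was larger than 1.96 counting errors, but no replicate shows how far such gaps vary between animals. Mdh2 (0.05 ± 0.01) and Ogdh, the first enzyme of the 2-oxoglutarate dehydrogenase complex (-0.03 ± 0.04), were the closest to 0, and Ogdh came out above 0 under 3 of 4 other scalings. The small Mdh2 gap was also larger than 1.96 counting errors, and the Ogdh gap was not.

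**Figure D2:**
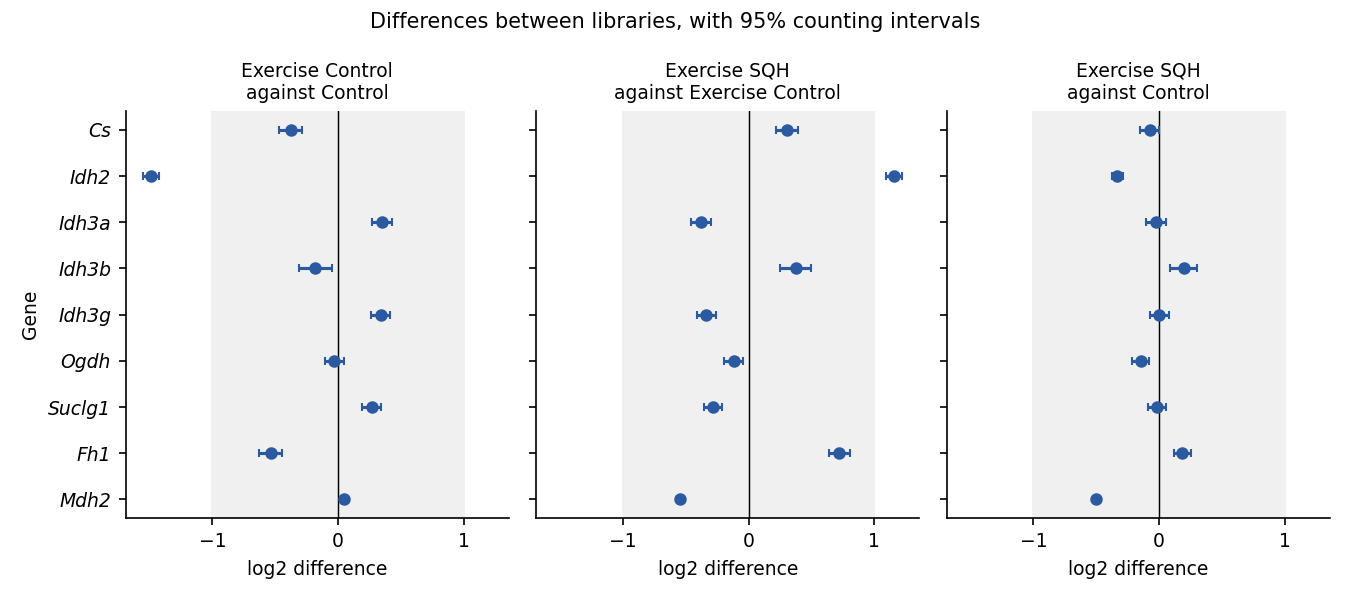
Log2 difference (x axis) of each of the 9 genes (y axis) in the 3 comparisons, with 95% counting intervals as bars. The grey band spans differences under 2-fold, and Idh2 lies outside it in the left panel (-1.49) and the middle panel (1.16).

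Exercise SQH was set against Exercise Control to see what differed with SQH in muscle labelled as exercised. Idh2 was called higher, by 2.23-fold (1.16 ± 0.03), and no other member was called. Of the tested rows 5.68% were called higher and 2.33% lower, and 95.9% had a lower difference than Idh2. Lower calls made up 29.1% of all calls as deposited and 30.4% to 42.0% under the other scalings, the highest after quantile normalization. The median of the 9 differences was -0.12 (0.03 over the tested rows), with 4 above 0 and 5 below.

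Fh1 had the next highest difference, 0.72 ± 0.04 or 1.65-fold, short of a call. At a 1.5-fold threshold it would count as higher, as would 14.8% of the tested rows. Idh3b (0.38 ± 0.06) and Cs (0.30 ± 0.04) were also above 0. Mdh2 differed by -0.55 ± 0.01, Idh3a by -0.38 ± 0.04, Idh3g by -0.34 ± 0.04, Suclg1 by -0.28 ± 0.04 and Ogdh by -0.12 ± 0.04. This comparison and the one before share the Exercise Control library, so a value that is high or low there enters both with opposite sign.

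Exercise SQH against Control is the comparison without the Exercise Control library. No member was called there, where 1.76% of the tested rows were called higher and 1.26% lower. Lower calls were 41.8% of all calls as deposited and after centring on library medians, 46.2% after quantile normalization, 50.4% after centring on oxidative phosphorylation genes (116 higher and 118 lower) and 31.0% after scaling to the sum without ribosomal precursor RNA. Mdh2 had the largest gap (-0.50 ± 0.01, or 1.42-fold lower), and 9.10% of tested rows had a lower difference. Idh2 stood at -0.33 ± 0.02, a gap under 2-fold that leaves out the Exercise Control library. Idh3b (0.20 ± 0.06, with 10.29 in Exercise SQH and 10.09 in Control) and Fh1 (0.19 ± 0.04) were above 0, and Ogdh was below (-0.15 ± 0.03). Cs (-0.07 ± 0.04), Idh3a (-0.03 ± 0.04), Suclg1 (-0.02 ± 0.04) and Idh3g (0.00 ± 0.04) lay within 1.96 counting errors of 0, and each of these 4 changed sign under 1 or 2 of the other scalings. The median of the 9 differences was -0.03, beside -0.02 over the tested rows.

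**Figure D3:**
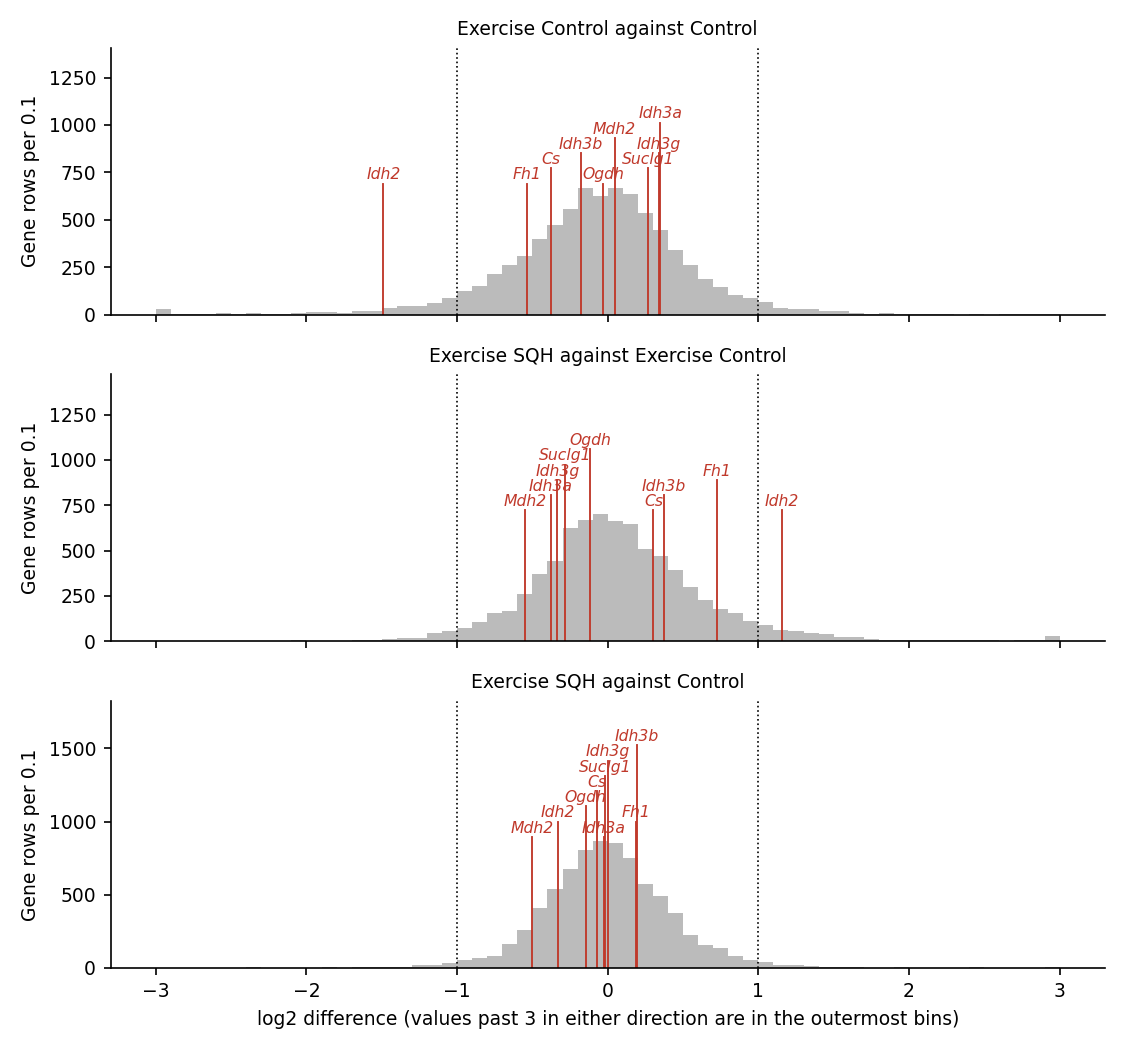
Number of tested gene rows (y axis) by log2 difference (x axis, bins of 0.1) in the 3 comparisons, with each of the 9 genes as a labelled red line and dotted lines at 2-fold. Only Idh2 passes a dotted line, below 0 in the top panel and above 0 in the middle one.

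The isocitrate dehydrogenases carried the widest contrast among the members. Idh2 made up 54.0% of the reads estimated for Idh2 and the 3 Idh3 subunits in Exercise SQH (95% Wilson interval 53.2% to 54.7%), 30.9% in Exercise Control (30.0% to 31.9%) and 60.1% in Control (59.3% to 60.9%). The level of Idh2 over Idh3a was 3.23 in Exercise SQH, 1.12 in Exercise Control and 3.99 in Control. Summed over the subunits, the Idh3 level differed by 0.26 ± 0.03 in Exercise Control against Control, opposite in sign to Idh2, and by 0.03 ± 0.02 in Exercise SQH against Control. The subunits of the NAD enzyme did not keep 1 ratio. Idh3b, the beta subunit, gave 20.6% of Idh3 reads in Exercise SQH (19.7% to 21.5%), 13.6% in Exercise Control (12.7% to 14.4%) and 18.4% in Control (17.5% to 19.4%). Idh1, the NADP enzyme of cytosol and peroxisomes, stood far lower, at 8.54 in Exercise SQH, 8.37 in Exercise Control and 8.20 in Control, with no call.

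**Figure D4:**
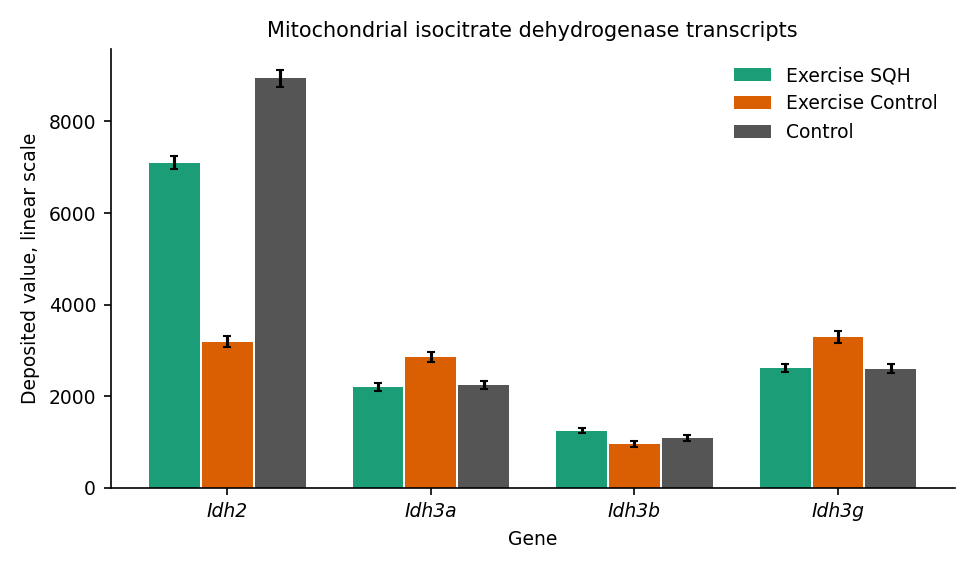
Deposited value on the linear scale (y axis, from 0) of Idh2 and the 3 Idh3 subunits (x axis) in Exercise SQH, Exercise Control and Control, with 95% counting intervals as bars. Idh2 exceeds Idh3a by 3.23 and 3.99 times in Exercise SQH and Control and by 1.12 times in Exercise Control.

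Malate dehydrogenase, too, has separate genes for matrix and cytosol. Mdh1, the cytosolic enzyme of the malate-aspartate shuttle, stood at 12.43 in Exercise SQH, 11.83 in Exercise Control and 12.53 in Control, and was not called in any comparison (-0.70 ± 0.03 in Exercise Control against Control). Mdh2 over Mdh1 was 6.21 in Exercise SQH, 13.8 in Exercise Control and 8.21 in Control, highest where Mdh1 was lowest. Mdh1b, a gene of the same family, was at 0 in all libraries.

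The partners of the members in their complexes did not all follow them. Suclg2, the GTP-forming beta subunit that pairs with Suclg1, stood at 8.92 in Exercise SQH, 8.20 in Exercise Control and 8.93 in Control (-0.73 ± 0.11 in Exercise Control against Control), opposite in sign to Suclg1. Sucla2, the ATP-forming beta subunit, differed by 0.12 ± 0.04 there. Suclg1 over Suclg2 was 5.48 in Exercise SQH, 11.0 in Exercise Control and 5.50 in Control. Dlst and Dld, the other enzymes of the 2-oxoglutarate dehydrogenase complex, differed by -0.26 ± 0.06 and -0.39 ± 0.06 in Exercise Control against Control, while Ogdh stood near 0.

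Of the 9 other cycle enzymes listed, 8 passed the minimum and Ogdhl was at 0 throughout. In Exercise Control against Control 1 was called lower, the succinate dehydrogenase subunit gene Sdhd (-3.82 ± 0.21), and none higher, with a list median of -0.30. In Exercise SQH against Exercise Control Sdhd was the 1 called higher (4.74 ± 0.21) and the median was 0.31. Over all tested rows 5.33% were called lower in the first of these comparisons and 5.68% higher in the second. Against Control, Exercise SQH had no call in this list.

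Among the 15 tested genes of anaplerosis and the malate-aspartate shuttle, 1 was called lower and none higher in Exercise Control against Control. This was Slc25a22, a mitochondrial glutamate carrier, at 8.34 in Exercise SQH, 6.20 in Exercise Control and 7.65 in Control (-1.45 ± 0.21). It was also the 1 called higher in Exercise SQH against Exercise Control (2.14 ± 0.20). The shares over all tested rows were 5.33% lower and 5.68% higher in these comparisons. A single call among 15 genes thus says little about the list. The list median was 0.21 in Exercise Control against Control, and the transaminase genes Got1 (0.76 ± 0.02) and Gpt2 (0.82 ± 0.08) lay highest without a call.

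Idh2 shares the supply of NADPH in the matrix with Nnt, the transhydrogenase of the inner membrane. Nnt stood at 11.32 in Exercise SQH, 10.32 in Exercise Control and 11.31 in Control. Its difference was -0.99 ± 0.05 in Exercise Control against Control, just short of a call, and just past the threshold in Exercise SQH against Exercise Control. Of the 8 tested genes of the mitochondrial NADPH list, 1 was called higher in Exercise Control against Control and none lower. That was Aldh1l2, a folate enzyme that makes NADPH (1.81 ± 0.29). Its linear values were 65.4 in Exercise SQH, 115 in Exercise Control and 32.8 in Control. Only the Exercise Control value was above the minimum for calls, so Aldh1l2 was tested because of the library where it was high. In Exercise SQH against Exercise Control, Nnt and Gsr, glutathione reductase (1.07 ± 0.19), were called higher and Txnrd2, mitochondrial thioredoxin reductase (-1.01 ± 0.16), lower. Of all tested rows 5.68% were called higher and 2.33% lower there, and 2.95% were called higher in Exercise Control against Control. Sirt3, the deacetylase that acts on Idh2, was at 7.07 in Exercise SQH, 6.69 in Exercise Control and 6.35 in Control and was not called.

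Of the 7 tested genes for proteins that act on cycle enzymes or bring calcium to them, none was called in Exercise Control against Control and 1 was called higher in Exercise SQH against Exercise Control. That was Micu2, a gatekeeper of the calcium uniporter (log2 difference just past the threshold), at 8.74 in Exercise SQH, 7.74 in Exercise Control and 8.63 in Control. The uniporter gene Mcu lay at 10.47, 9.77 and 10.35 in the same libraries. Over all tested rows 5.33% were called lower and 2.95% higher in Exercise Control against Control, and 5.68% higher in Exercise SQH against Exercise Control. A single call among 7 genes thus says little about that list. Nuclear-encoded genes of oxidative phosphorylation, of which 73 were tested, had a median of 0.07 and no call in Exercise Control against Control, and the same list had 1 call in each of the other comparisons. Centring each library on these genes moves every gene of a library by the same amount. With that centring Idh2 differed by -1.48 in Exercise Control against Control, beside -1.49 as deposited. In Exercise SQH against Exercise Control it differed by 1.11, beside 1.16 as deposited. The part of mitochondrial content in the Idh2 gaps was not tested.

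**Figure D5:**
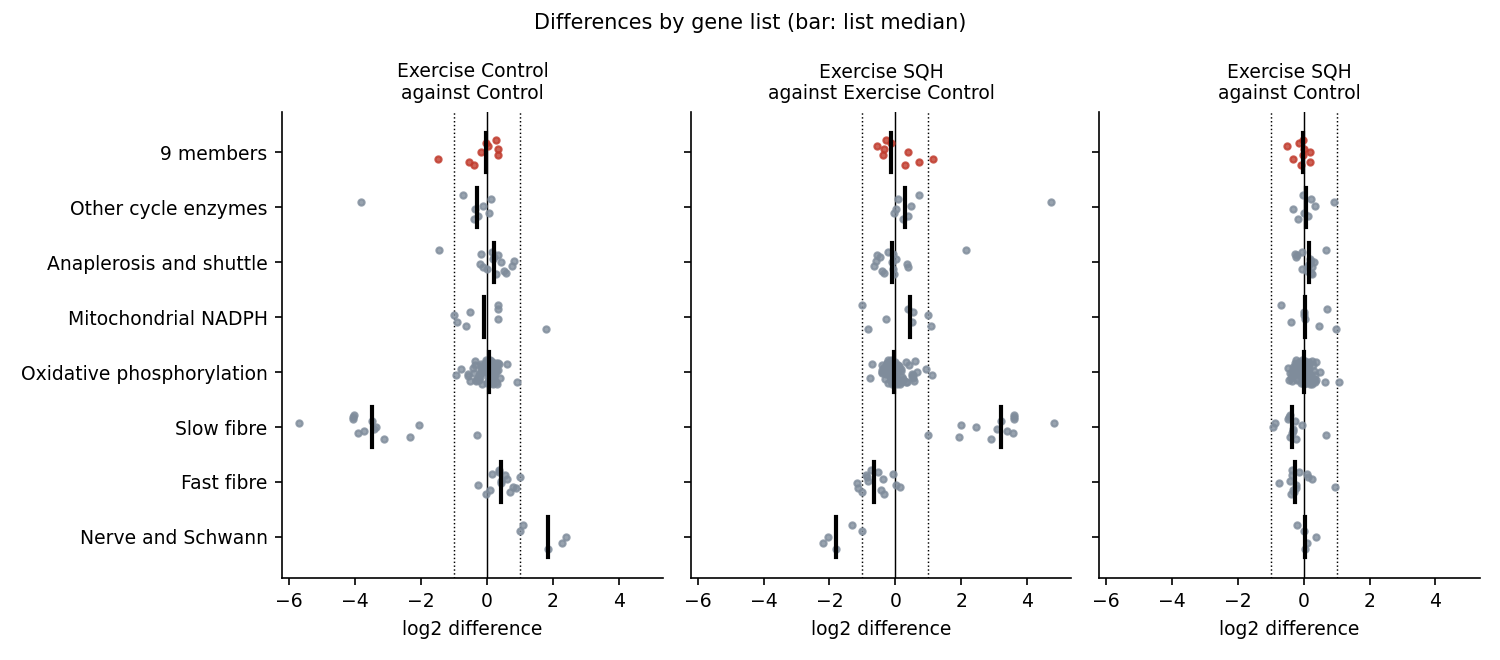
Log2 difference (x axis) of each tested gene (points) in 8 gene lists (y axis) for the 3 comparisons, with the list median as a black bar and dotted lines at 2-fold. The medians of the 9 members lie at -0.03, -0.12 and -0.03, while the slow-fibre median is -3.48 in the left panel.

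Likeness in pattern was taken as the Euclidean distance of centred log2 values over the 3 libraries. Members, clone or model names, pseudogenes, small RNA genes and repeated symbols were not ranked, and counting error was not weighed. Closest to Idh2 were Itgb6 (distance 0.02), Esrrb (0.03), Hspa1l (0.05), Gimap8 (0.06) and Dhx32 (0.06). They are far less abundant than Idh2, with Esrrb, an estrogen-related receptor gene, at 6.44 in Exercise SQH, 5.25 in Exercise Control and 6.73 in Control. In all, 40 tested rows lay within a distance of 0.2 of Idh2, Idh2 included. The median profile of the other 8 members had 1536 rows that close, among them the complex I subunit gene Ndufa13 (0.02), and Kctd3, Ackr3, Clip1 and Skiv2l2 at like distances.

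The members share no chromosome. In GRCm38 Idh2 lies on the minus strand of chromosome 7 (80094846 to 80115392), Fh1 on the minus strand of chromosome 1 (175600374 to 175625635) and Mdh2 on the plus strand of chromosome 5 (135778480 to 135790398). Cs is on chromosome 10, Idh3a on 9, Idh3b on 2, Idh3g on X, Ogdh on 11 and Suclg1 on 6. Exons of Idh3b share 5 bases with Nop56 on the opposite strand, and no other member has exonic bases in common with an annotated gene. The last 300 bases of the coding transcripts of the 9 genes matched no transcript of another gene at 90% identity over 75 bases or more. Csl, a citrate synthase-like gene, did not pass the minimum and was at 0 in Exercise SQH.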

How the data were processed

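Libraries were prepared with the Lexogen QuantSeq 3' kit from 500 ng of total RNA, per the labels' protocols. Bowtie2, edgeR and build mm10 appear in the submitters' processing notes with no role. How reads were counted, on which annotation and strand, and with what filters is not given in the sources used here. The deposited files hold log2 values to 3 decimals, from 0 to 19.83, that the authors had already adjusted for library size in a way that is not given; no value was rescaled for the main results. Linear values up to 9 bunch at multiples of a step of 0.766 in Exercise SQH, 1.19 in Exercise Control and 0.939 in Control, and 84.4%, 95.7% and 100% of them lie within 0.2 step of one. Whole reads could not be recovered, so reads were estimated as linear value over step, and counting errors are approximate.

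The minimum for calls, 66.5, is the median of the mean linear value over the 15714 rows above 0 in any library. Differences are log2 values subtracted, the first named library minus the second. Gene lists and members were chosen with earlier results of these data known. All 9 members were named, with listed genes other than 1 that is not reported here, and the 5 rows nearest in pattern under a distance rule. The step estimate and the calls were tested on simulated data with counting noise only and known changes larger than any called for a member. Recovery of changes near the 2-fold threshold was not tested. Positions and transcripts come from GENCODE M21 (GRCm38, the same assembly as mm10), which held 95.7% of the symbols. Python 3.11.15, numpy 2.4.6, pandas 2.3.3 and scipy 1.17.1 were used.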

Additional observations from a re-analysis of the deposited data

How the results depend on the processing

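The alternatives were no minimum, a minimum at the upper quartile or on the libraries compared, 4 other scalings, 16 added to linear values, and thresholds of 1.5-fold and 3-fold. Idh2 stayed the single called member of both comparisons with Exercise Control under each of these but the thresholds. At 3-fold the count of called members was 0 in Exercise Control against Control and 0 in Exercise SQH against Exercise Control. At 1.5-fold it was 2 in Exercise SQH against Exercise Control (Idh2 and Fh1, where 14.8% of tested rows were called higher). In Exercise SQH against Control it was 0 under every alternative. No called member changed sign. The scalings moved a member's difference by at most 0.14, and 9 of 108 signs changed, all for uncalled differences under 0.1. Scalings cannot change the order of members within a library.

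Over all rows, 651 were called in Exercise Control against Control, against 2649 with no minimum, 233 at the upper quartile, 2012 at 1.5-fold and 167 at 3-fold. In Exercise SQH against Exercise Control the counts were 629, 2553, 218, 1888 and 159, and in Exercise SQH against Control 237, 1852, 58, 1082 and 44, with 143 after adding 16. No paired analysis was possible because each group has 1 library. Leaving out a replicate was not run, as there is 1 library per group, and every value of Exercise Control rests on 1 library of 8.12 M estimated reads, the shallowest of the 3.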
